A study of Mus musculus with 8 samples.

Results

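The enzymes described here carry glucose through glycolysis and, in red blood cells, through its side branch that makes 2,3-bisphosphoglycerate. They are 10 genes, chosen by a rule on function with earlier results of these data known: Bpgm, Pgam1, Pklr, Pfkm, Pfkl, Pfkp, Hk1, Hk2, Ldha and Gpi1. All probe sets to which the platform annotation gives one of these genes alone were taken, which gave 18 probe sets of 45101 for 9 of the 10 genes. Gpi1, the isomerase of the second step, had no probe set of its own in that annotation and was not analysed here. Whole blood came from female C57BL/6J mice, on Day 7, and the labels give their age as 6 to 8 weeks, which the methods give as the age at purchase, before acclimation. The 4 RST mice had been held in tubes for 6 h each day (restraint stress, RST), and the 4 control mice had no food or water over the same 6 h. Each mouse gave 1 Affymetrix array, a single-color array on which each probe set gives the level of its transcript on a log2 scale. Cages of mice were assigned to a group as a whole, and which mice shared a cage is not given in the sources used here.

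Glycolysis splits glucose into pyruvate and lactate and yields ATP without oxygen. Mature erythrocytes have no mitochondria and draw their ATP from this pathway alone, and they divert part of it to 2,3-bisphosphoglycerate, which lowers the affinity of hemoglobin for oxygen. Several steps have isozymes from separate genes that blood cells use in different proportion. Bpgm and the red cell form of Pklr belong to erythroid cells and Pfkm is the muscle-type phosphofructokinase that red cells also hold, while Hk2 and Pfkp are forms found in leukocytes. Whole blood mixes these cells, so fewer cells of a type and less RNA per cell cannot be told apart in any value below.

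None of the 9 measured genes passed the test of RST against control blood after adjustment over all 25084 probe sets tested. limma called 0 of these probe sets with an adjusted p under 0.05 and more than 1.5-fold change (0%), and its smallest adjusted p was 0.32. Before adjustment 3337 probe sets passed these limits, and the unmoderated test of the methods (analysis of variance), run on the same probe sets and limits, called 2264 before and 0 after adjustment. At that fold change and a p under 0.05 before adjustment, 1 of the 9 genes, Pfkp, was lower in RST blood and 0 were higher. Over all 11762 tested genes, each at its brightest probe set, 12.8% were lower and 2.80% higher by the same rule, so a single lower gene among 9 lies near the background. The RST and control values overlapped in all 18 probe sets, and so in each of the 9 genes at its brightest. Of all tested genes at their brightest probe set, 6.57% were lower and 2.37% higher without overlap. Of the 25084 tested probe sets, 1444 were lower and 560 higher without overlap. Of the 9 genes, 7 had a lower and 2 a higher mean in RST blood, with a median log2 fold change of −0.41. The median over all tested genes was −0.24. Against this median gene 5 members (Pfkp, Hk2, Pgam1, Ldha and Pfkl) lay lower and 4 (Pklr, Bpgm, Hk1 and Pfkm) higher.

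Arrays of both groups stood apart from the rest. The array of RST mouse 4 had the lowest log2 value of the 8 in 41.6% of the tested probe sets and in 6 of the 9 genes, namely Pfkl, Pfkp, Hk1, Hk2, Pgam1 and Ldha. Transcripts added before hybridization (18 probe sets) averaged 12.35 on the array of RST mouse 2 and 11.93 and 11.90 on those of control mice 1 and 2, while the 5 others had 12.60 to 12.74. The standard deviation was larger among RST than among control mice in 8 of the 9 genes, all but Bpgm. In Pfkm the step was small (0.49 against 0.45). The share over all tested genes was not counted, so it is not known whether this is particular to the 9 genes.

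**Figure D1:**
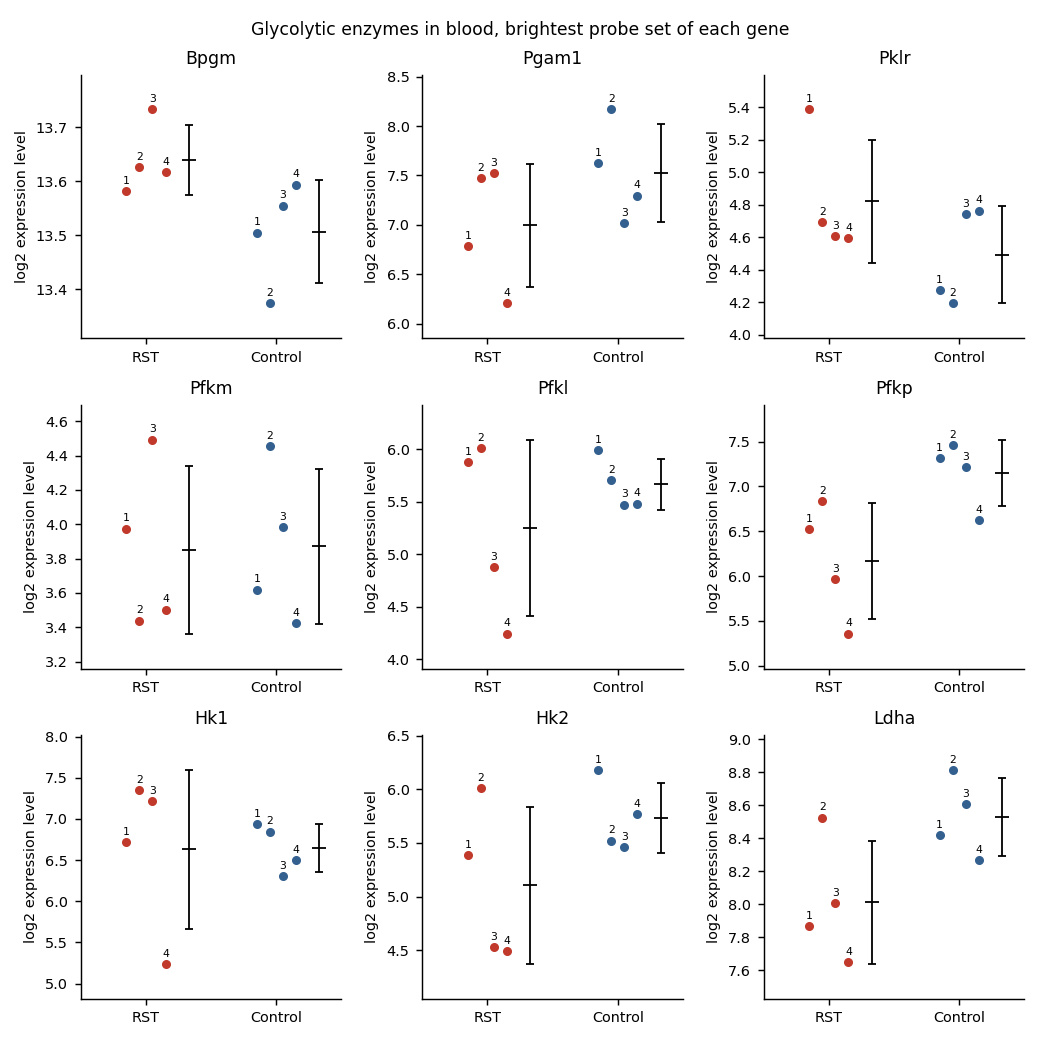
Log2 expression level of 9 glycolytic enzymes in blood, at the brightest tested probe set of each gene, for 4 RST and 4 control mice (points, with the mouse number; black bars, mean ± SD). RST and control mice overlap in every panel, and RST mouse 4 is the lowest of the 8 in 6 of them.

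Bpgm makes 2,3-bisphosphoglycerate and was the member with the highest signal. Its 3 probe sets all had a higher mean in RST mice. At the brightest of them the log2 level was 13.58, 13.63, 13.73 and 13.62 in RST mice 1 to 4, against 13.50, 13.37, 13.56 and 13.59 in control mice 1 to 4. RST mice 2, 3 and 4 lay above all control mice, and RST mouse 1 lay below control mouse 4. The means were 13.64 ± 0.065 in RST and 13.51 ± 0.096 in control mice (SD, n = 4 each), a log2 fold change of 0.13 or 1.10-fold (standard error 0.23 on the log2 scale, limma adjusted p = 0.81, exact two-sided permutation p = 0.057). The standard error of limma is wider than the spread of Bpgm itself because limma draws the variance of a probe set toward that of all probe sets. The other 2 probe sets had log2 fold changes of 0.26 and 0.16.

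Averaged over its 3 probe sets, Bpgm was at 13.33, 13.33, 13.41 and 13.34 in RST mice and at 13.10, 13.08, 13.18 and 13.32 in control mice. Every RST mouse then lay above every control mouse, with RST mouse 1 and control mouse 4 nearly level. The log2 fold change of this average was 0.18 (limma adjusted p = 0.72, exact two-sided permutation p = 0.029, the smallest p that 4 mice against 4 allow). This exact p was not adjusted for the other values tested. The same average gave an exact permutation p of 0.31 for Pfkl, 0.086 for Pfkp and 0.86 for Hk1. At each single probe set of Bpgm the groups overlapped. Of all genes at their brightest probe set, 2.37% were higher in RST blood without overlap. Scaling the arrays to the control probe sets turned the value of the brightest probe set to −0.071. The highest value of any probe set on the 8 arrays was 14.72, so Bpgm was measured close to the top of the range.

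Pgam1, the mutase of the main pathway that is related to Bpgm in sequence, had a lower mean in RST mice. Its log2 level was 6.78, 7.47, 7.52 and 6.20 in RST mice 1 to 4, against 7.63, 8.17, 7.02 and 7.30 in control mice. RST mice 1 and 4 lay below all control mice, while RST mice 2 and 3 lay among them. The log2 fold change was −0.53 (standard error 0.37, limma adjusted p = 0.51, exact two-sided permutation p = 0.23). Leaving out RST mouse 4 brought it to −0.27.

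Pklr encodes the pyruvate kinase of liver and red cells and has a start for each tissue. Its single tested probe set was at 5.39, 4.69, 4.61 and 4.59 in RST mice, against 4.27, 4.19, 4.74 and 4.76 in control mice. RST mouse 1 stood above the other 7 mice, and the remaining RST mice lay between the 2 lower and the 2 higher control mice. The means were 4.82 ± 0.38 in RST and 4.49 ± 0.30 in control mice (SD, n = 4 each), a log2 fold change of 0.33 (standard error 0.28, limma adjusted p = 0.60, exact two-sided permutation p = 0.29). Leaving out RST mouse 1 brought it to 0.14. The other 2 probe sets of Pklr were below the filter on low values, with log2 fold changes of 0.062 and 0.0028 in a fit of all probe sets.

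Pfkm, the muscle-type phosphofructokinase, was measured by a single probe set of low signal. It was at 3.97, 3.44, 4.49 and 3.50 in RST mice and at 3.62, 4.45, 3.98 and 3.43 in control mice. Both groups spanned nearly the same range, and the log2 fold change was −0.018 (standard error 0.33, limma adjusted p = 0.99, exact two-sided permutation p = 0.97). Its sign changed with the normalization and with the mice included. These values give no direction for Pfkm.

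The promoters of the red cell isoforms are shown with that of Bpgm and that of the leukocyte isoform Hk2, so that the sequences at the starts of the genes compared can be read side by side. Each window runs from 250 bases before to 50 bases after a start, 5′ to 3′ on the strand of the gene, from RefSeq on build GRCm38.p6, and all 10 members matched, with 16 windows. Capitals mark 3 short motifs on either strand. They are AGATAA (or TTATCT), a form bound by GATA factors, CACCC (or GGGTG), the core bound by Krüppel-like factors, and ACGTG (or CACGT), the core bound by hypoxia-inducible factors. Pklr has an upstream start, used in red cells, and a start 481 bases downstream, used in liver.
Pklr, upstream start, chr3:89135892-89136191, plus strand: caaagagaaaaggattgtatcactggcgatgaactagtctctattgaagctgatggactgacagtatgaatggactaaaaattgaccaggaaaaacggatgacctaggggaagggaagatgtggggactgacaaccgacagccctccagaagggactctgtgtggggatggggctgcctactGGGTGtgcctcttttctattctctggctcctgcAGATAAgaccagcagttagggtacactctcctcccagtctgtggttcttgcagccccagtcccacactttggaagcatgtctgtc
Pklr, downstream start, chr3:89136373-89136672, plus strand: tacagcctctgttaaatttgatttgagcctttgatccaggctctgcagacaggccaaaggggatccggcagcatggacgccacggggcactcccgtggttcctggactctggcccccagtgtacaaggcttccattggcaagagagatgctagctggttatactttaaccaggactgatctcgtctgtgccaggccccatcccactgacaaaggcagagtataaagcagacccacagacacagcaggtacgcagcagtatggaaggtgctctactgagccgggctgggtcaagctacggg
Pfkm, second of 4 starts, chr15:98108221-98108520, plus strand: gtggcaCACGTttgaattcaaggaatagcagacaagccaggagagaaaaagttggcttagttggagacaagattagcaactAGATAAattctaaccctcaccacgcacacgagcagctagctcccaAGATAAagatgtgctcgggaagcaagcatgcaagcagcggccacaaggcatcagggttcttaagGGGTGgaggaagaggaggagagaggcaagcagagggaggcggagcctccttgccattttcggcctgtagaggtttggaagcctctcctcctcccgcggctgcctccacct
Bpgm, chr6:34476106-34476405, plus strand: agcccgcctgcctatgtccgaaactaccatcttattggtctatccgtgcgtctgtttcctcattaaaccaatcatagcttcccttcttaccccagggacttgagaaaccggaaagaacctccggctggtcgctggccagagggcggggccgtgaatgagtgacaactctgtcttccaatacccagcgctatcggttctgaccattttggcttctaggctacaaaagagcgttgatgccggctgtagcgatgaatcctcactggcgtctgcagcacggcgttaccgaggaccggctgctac
Hk2, chr6:82774405-82774704, minus strand: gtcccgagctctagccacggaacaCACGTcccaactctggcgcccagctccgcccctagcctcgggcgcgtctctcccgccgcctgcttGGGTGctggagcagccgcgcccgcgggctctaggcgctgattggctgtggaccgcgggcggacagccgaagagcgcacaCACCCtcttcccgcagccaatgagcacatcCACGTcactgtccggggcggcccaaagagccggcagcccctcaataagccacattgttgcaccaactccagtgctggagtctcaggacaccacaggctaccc

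The upstream window of Pklr held AGATAA at −35 and GGGTG at −68, counted to the first base of each match with the start at 1, and the downstream window held none of the 3 motifs. AGATAA or its complement was found in 3 of the 4 windows of Pfkm, and in no window of the other 8 members. Of the windows of Pfkm, the one shown has the most matches of it, 2, and the last has none. In all, 4 of the 16 windows held it, where 11.2% of the 32851 promoter windows of the mouse table do. Windows of 1 gene can overlap, as those of Pfkm at 98108221 and 98108306 do. The window of Bpgm held none of the 3 motifs. That of Hk2 held 2 matches of CACCC and 2 of ACGTG, motifs present in 57.5% and 19.6% of all windows. A match of these letters is a description of the window and says nothing of binding.

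The other phosphofructokinases were lower on average in RST blood at their brightest probe sets. Pfkp, the platelet-type form that leukocytes also express, had the smallest p of the members. Its log2 level was 6.52, 6.83, 5.97 and 5.36 in RST mice 1 to 4, against 7.31, 7.46, 7.22 and 6.62 in control mice. RST mice 1, 3 and 4 lay below all control mice, and RST mouse 2 lay above control mouse 4 alone. The means were 6.17 ± 0.65 in RST and 7.15 ± 0.37 in control mice (SD, n = 4 each), a log2 fold change of −0.98 or 1.98-fold (standard error 0.35 on the log2 scale). This did not pass the adjusted threshold (limma adjusted p = 0.32, exact two-sided permutation p = 0.057). The second tested probe set of Pfkp had a log2 fold change of −0.25, so that the mean of both was −0.62 (adjusted p = 0.39). Another, below the filter, was at 0.18 in the fit of all probe sets.

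Pfkl, the liver-type form, was at 5.87, 6.01, 4.88 and 4.24 in RST mice and at 6.00, 5.71, 5.47 and 5.48 in control mice. RST mice 3 and 4 were the lowest of the 8, while RST mouse 2 was the highest. The log2 fold change was −0.41 (standard error 0.39, limma adjusted p = 0.63). Leaving out RST mouse 4 brought it to −0.078. A second probe set gave −0.49 and the last, of low signal, gave 0.17. The probe sets of Pfkl thus did not share a direction.

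Hexokinases phosphorylate glucose as it enters the cell. Hk1, the form of red cells and most tissues, was at 6.72, 7.35, 7.21 and 5.24 in RST mice and at 6.93, 6.84, 6.31 and 6.50 in control mice. RST mice 2 and 3 lay above and RST mouse 4 below all control mice, and the means were level (log2 fold change −0.016, standard error 0.43, limma adjusted p = 0.99). Without RST mouse 4 the value was 0.45, and the second probe set of Hk1 gave 0.24.

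Hk2, an inducible form, was at 5.39, 6.01, 4.53 and 4.49 in RST mice and at 6.18, 5.52, 5.46 and 5.77 in control mice. RST mice 1, 3 and 4 lay below all control mice, RST mouse 1 by a small step, while RST mouse 2 was second only to control mouse 1. The means were 5.10 ± 0.73 in RST and 5.73 ± 0.33 in control mice (SD, n = 4 each), a log2 fold change of −0.63 or 1.55-fold (standard error 0.37 on the log2 scale, limma adjusted p = 0.44, exact two-sided permutation p = 0.20). It was −0.33 after quantile normalization.

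Ldha, the lactate dehydrogenase subunit that turns pyruvate to lactate, was at 7.87, 8.52, 8.01 and 7.65 in RST mice, against 8.42, 8.81, 8.60 and 8.27 in control mice. As in Pfkp, RST mice 1, 3 and 4 lay below all control mice and RST mouse 2 lay among them. The means were 8.01 ± 0.37 in RST and 8.53 ± 0.24 in control mice (SD, n = 4 each), a log2 fold change of −0.52 (standard error 0.28, limma adjusted p = 0.41, exact two-sided permutation p = 0.086).

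**Figure D2:**
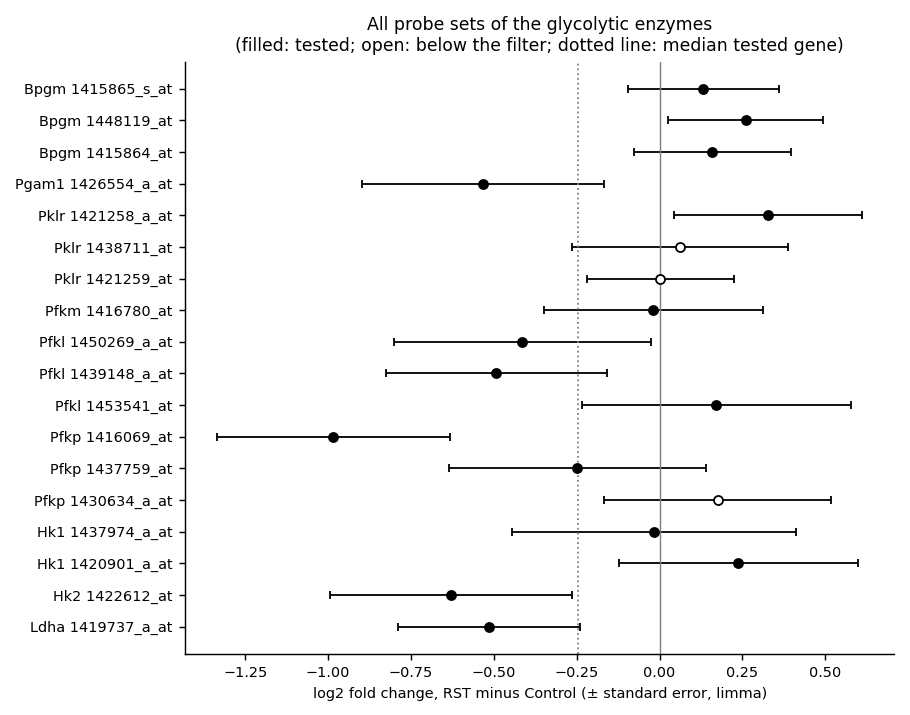
Log2 fold change (RST minus control) with its standard error from limma for all 18 probe sets of the 9 genes, with 15 tested (filled) and 3 below the filter (open). The probe sets of Bpgm and those of Pklr lie above 0, and those of Pfkl, Pfkp and Hk1 lie on both sides of it. The dotted line is the median tested gene at −0.24.

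Red cell isoforms were set against leukocyte isoforms within each array, as the mean log2 level of Bpgm, Pklr and Pfkm minus that of Hk2 and Pfkp. Probe sets differ in their own brightness, so only the change of this difference between mice has a meaning. It was 1.69, 0.83, 2.36 and 2.31 in RST mice 1 to 4, against 0.39, 0.85, 1.09 and 1.06 in control mice. RST mice 1, 3 and 4 lay above all control mice, and RST mouse 2 lay among them. RST mouse 4 had the lowest level of the 8 mice for Hk2 and Pfkp, and for no red cell isoform. Its array was also lowest in 41.6% of the tested probe sets, and the part of this in its difference was not tested. The mean was 1.80 ± 0.71 in RST and 0.85 ± 0.33 in control mice (SD, n = 4 each), a difference of 0.95 log2 units that is given with no test, since it is a score over chosen genes. The leukocyte isoforms took the larger share of it, with a mean log2 fold change of −0.81, against 0.15 for the red cell isoforms. After quantile normalization these were −0.51 and 0.24, and with arrays scaled to the control probe sets they were −1.01 and −0.057. The difference between them was 0.78 to 1.13 with each of the 5 isoforms left out in turn. It could not fall to 0 in this way, since each red cell isoform had a higher log2 fold change than Hk2 and Pfkp. When single mice were dropped instead, the difference was smallest for RST mouse 3 (0.77) and largest for RST mouse 2 (1.28). Dropping control mice 1 and 2 together gave 0.72.

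Isozymes, and the related mutases Bpgm and Pgam1, were compared in 5 pairs, each by its log2 difference within the array. Pfkm minus Pfkp was −2.55, −3.40, −1.47 and −1.86 in RST mice, against −3.69, −3.01, −3.23 and −3.20 in control mice. It was higher in RST mice 1, 3 and 4 than in any control mouse, and lower in RST mouse 2 than in control mice 2, 3 and 4. The group means differed by 0.97 (exact two-sided permutation p = 0.11, or 0.33 when adjusted over the 5 pairs). Bpgm minus Pgam1 was 6.80, 6.16, 6.21 and 7.41 in RST mice and 5.88, 5.21, 6.54 and 6.30 in control mice, a difference of 0.66 (exact two-sided permutation p = 0.20, adjusted 0.33). Hk1 minus Hk2 was 1.33, 1.34, 2.69 and 0.74 in RST mice and 0.75, 1.32, 0.85 and 0.73 in control mice. The group means differed by 0.61 (p = 0.17 by the same exact test, adjusted 0.33). RST mice 1 and 2 lay barely above control mouse 2, RST mouse 3 lay clearly above it and RST mouse 4 lay among the control mice. Pfkm minus Pfkl differed by 0.40 and Pklr minus Pkm, the pyruvate kinase of leukocytes and most tissues, by 0.27 (exact two-sided permutation p = 0.54 and 0.49, adjusted 0.54 for both). All 5 differences were above 0, and none passed a p under 0.05. The smaller ones moved with single mice. Without RST mouse 3, Pfkm minus Pfkl was 0.057 and Hk1 minus Hk2 was 0.23. Pklr minus Pkm was 0.10 without RST mouse 1, 0.13 without RST mouse 4 and 0.14 and 0.16 without control mouse 1 or 2.

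**Figure D3:**
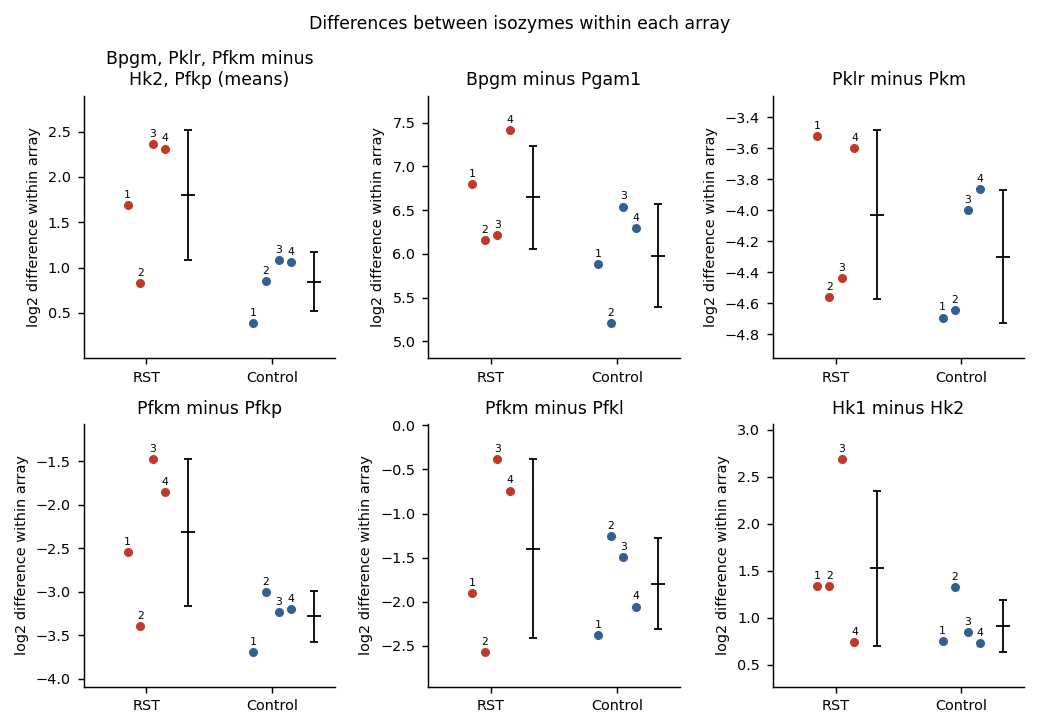
Within-array log2 difference between isoforms for 4 RST and 4 control mice (points with the mouse number; black bars, mean ± SD), with the mean of Bpgm, Pklr and Pfkm minus the mean of Hk2 and Pfkp in the upper left panel. In that panel RST mice 1, 3 and 4 lie between 1.69 and 2.36, above the control mice, and RST mouse 2 lies among them at 0.83.

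Across the 8 mice, the 5 members whose fold change lay below that of the median gene had positive correlations with each other. Pearson's r of their log2 levels ran from 0.48 (Hk2 with Pgam1) to 0.91 (Pfkp with Ldha) over the 8 arrays. Hk1, whose fold change lay above that of the median gene, also varied with these 5, with r from 0.48 (Hk2) to 0.77 (Pgam1). Positive correlation was thus not particular to the 5. Bpgm ran the other way from them, with r from −0.72 (Pfkp) to −0.45 (Pfkl). These values are descriptions, given with no test for genes grouped after their values were seen, and the points share each array and its scaling. Among 11753 other genes, the 5 most like Bpgm by Pearson's r over the 8 arrays were Cdr2 (0.97), Adipor1 (0.95), which encodes an adiponectin receptor, Riok3 (0.95), a protein kinase, BC065397 (0.95) and Rfk (0.95), the riboflavin kinase. Those most like Hk2 were Ctnnal1 (0.98), Bet1l (0.98), a Golgi SNARE protein, Il10rb (0.97), a chain of the interleukin 10 receptor, Zdhhc16 (0.96) and Dph5 (0.96), an enzyme of diphthamide synthesis.

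Of 28 other genes of glycolysis and of its carriers and regulators, 23 had a tested probe set. Among the others, Eno1 and Pfkfb1 had no probe set of their own in the annotation, Gapdh had control probe sets alone and Eno2 was below the filter. The mean was lower in RST blood for 16 and higher for 7, and the median log2 fold change was −0.27 against −0.24 over all tested genes. limma called none of them after adjustment. With the fold change above 1.5 and p under 0.05 before adjustment, 4 of the 23 were lower and 0 higher, against 12.8% and 2.80% of all genes.

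Adpgk, a hexokinase that uses ADP, was at 4.98, 5.59, 5.56 and 4.46 in RST mice, against 6.72, 5.92, 5.79 and 5.88 in control mice. Its log2 fold change was −0.93 (standard error 0.33, limma adjusted p = 0.32). At the brightest probe set it was the only 1 of the 23 whose groups did not overlap, a share below the 6.57% of all genes, and its second probe set overlapped. Ldhb, the other subunit of lactate dehydrogenase, overlapped at its brightest probe set (−0.50) and at dimmer ones (−0.67 and −0.72). Its remaining probe set was lower in RST mice without overlap (−1.03, limma adjusted p = 0.32), as were 1444 of all 25084 tested probe sets. The other 3 at that unadjusted threshold were Gpd1l at −1.03, which is related to glycerol-3-phosphate dehydrogenase, Pdk1 at −0.66, a kinase that turns off pyruvate dehydrogenase, and Pfkfb2 at −0.78, which sets the level of the phosphofructokinase activator fructose 2,6-bisphosphate. Their groups overlapped. The tested enzymes from aldolase to pyruvate kinase had log2 fold changes of −0.14 for Aldoa and −0.27 for Aldoc (aldolases), 0.085 for Tpi1 (triose phosphate isomerase), −0.36 for Pgk1 (phosphoglycerate kinase), 0.31 for Pgam2 (a mutase), −0.77 for Eno3 (an enolase) and 0.057 for Pkm. The glucose carriers had opposite signs, at −0.94 for Slc2a1 and 0.24 for Slc2a3 (limma adjusted p = 0.41 and 0.68).

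**Figure D4:**
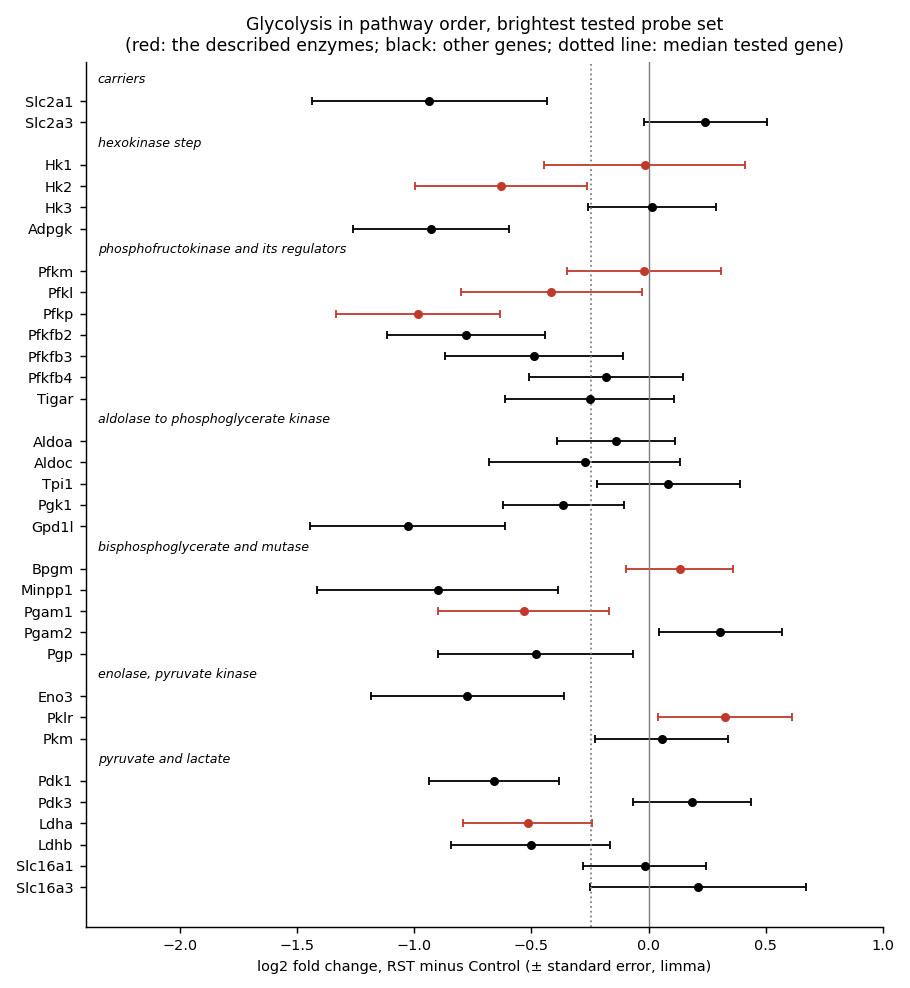
Log2 fold change (RST minus control) with its standard error from limma for the 9 members (red) and 23 other tested genes (black), in the order of the pathway from the glucose carriers to lactate export. Values run from −1.03 (Gpd1l) to 0.33 (Pklr), and the dotted line marks the median tested gene at −0.24.

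Markers of blood cell types, in lists chosen with earlier results of these data known, were measured on the same arrays. Their part in the values above was not tested. The mean log2 level of 10 measured reticulocyte and erythrocyte markers of 13 listed ran from 8.12 to 9.04 in RST mice and from 7.43 to 8.39 in control mice, with 4 of the 10 genes higher without overlap, against 2.37% of all genes. That of 7 B cell markers of 8 ran from 6.98 to 7.57 in RST mice and from 7.74 to 8.86 in control mice, so the groups did not overlap, and 5 of the 7 genes were lower without overlap, against 6.57% of all genes. T cell markers (6 of 8) ran from 6.53 to 7.62 in RST and from 7.53 to 8.29 in control mice, with 1 gene lower without overlap. Monocyte markers (7 of 8) ran from 7.72 to 8.50 in RST and from 8.27 to 9.25 in control mice, with 2 genes lower without overlap. Neutrophil markers (8 of 10) spanned 6.76 to 8.48 in RST and 7.36 to 8.71 in control mice, and platelet markers (8 of 8) 9.62 to 10.21 in RST and 9.63 to 9.93 in control mice. The log2 scale of the arrays has no 0 for an absent gene, and the lowest level of any of these tested markers was 3.47. RST mouse 2 had the highest mean of the RST mice in all 6 lists.

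**Figure D5:**
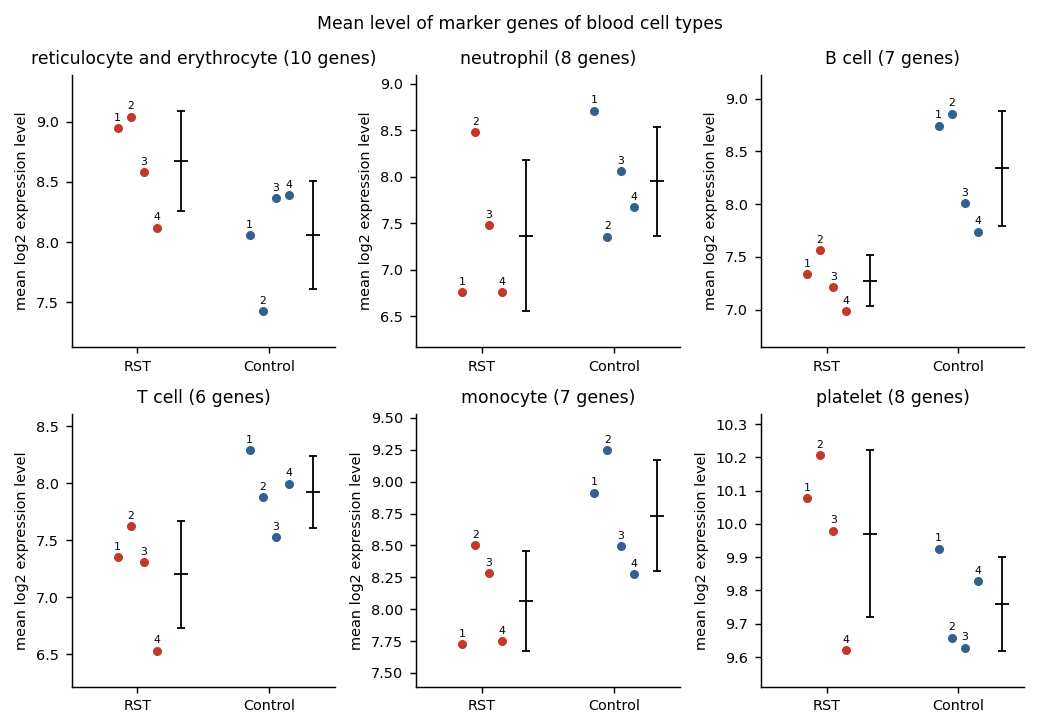
Mean log2 level of marker genes of 6 blood cell types in each of 4 RST and 4 control mice (points with the mouse number; black bars, mean ± SD). B cell markers lie at 6.98 to 7.57 in RST mice and at 7.74 to 8.86 in control mice, and in every other list the groups overlap.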

How the data were processed

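Total RNA of whole blood (30 ng per mouse) was amplified, biotin-labeled and hybridized to 1 Mouse Genome array per mouse (8 arrays). The values deposited by the authors are log2 expression levels, which they had corrected for background, normalized and summarized to probe sets by RMA (GSRMA in the methods). Partek and, in version 1.2.0.20, the Affymetrix Expression Console stand in the submitters' processing notes. Presence calls and scan dates were not used here, and the number of arrays limits the precision. Control probe sets (64) were left out, and a probe set was kept where at least 2 arrays of either group had it above the array median (25084). The test of RST against control was limma (version 3.58.1, R 4.3.3) with Benjamini-Hochberg adjustment over all kept probe sets, and single values by exact permutation of 4 against 4 mice. The fit was tested on simulated data. The annotation named 1 gene for 34958 probe sets, several for 932 (not named) and 9211 were not listed. The RefSeq gene table (GRCm38.p6) gave current symbols, matched by Entrez identifier, for 34754 of them. A gene stands at its brightest kept probe set. Members and lists were chosen with earlier results of these data known. Named are all members, Pkm, and of the other glycolysis genes the 4 with the smallest p and any without overlap, with the 5 genes of highest Pearson correlation to Bpgm and to Hk2. Ldhb, Aldoa, Aldoc, Tpi1, Pgk1, Pgam2, Eno3, Slc2a1 and Slc2a3 were chosen after their values were seen. Alternatives changed the filter, scaling, floor, weights, prior, test, block, covariate, probe set rule and mice. Python 3.11.15 and matplotlib 3.10.9 made the figures.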

Additional observations from a re-analysis of the deposited data

Results flagged for a closer look

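The log2 level of Pklr in RST mouse 1 was 5.385, set off from the other RST mice at 4.59 to 4.69 by 0.87 of the range of the group, beyond the limit of Dixon's test for 4 values. Of the values of 9 genes and 5 isozyme differences tested in this way in both groups, it was the only one, and chance marks about 1 in 20 groups. Without this mouse the log2 fold change of Pklr was 0.14.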

How the results depend on the processing

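No member passed the adjusted threshold under any alternative run (lowest adjusted p = 0.12, Pfkp with array weights, limma). Pfkp (−1.20 to −0.62), Hk2 (−0.93 to −0.33), Ldha (−0.72 to −0.37), Pgam1 (−0.74 to −0.16) and Pfkl (−0.67 to −0.078) kept a lower mean in RST blood in every alternative, and Pklr (0.068 to 0.56) a higher one. Bpgm turned to −0.071 with scaling to the control probe sets. Pfkm, at −0.018, turned to 0.10 after quantile normalization, 0.15 with array weights, 0.013 with the hybridization controls as a covariate and 0.15 (0.1481) without control mice 1 and 2, and ran from −0.23 to 0.18 with a mouse left out. Hk1, at −0.016, turned to 0.32, 0.16 and 0.29 in the first 3 of these settings, 0.23 without control mice 1 and 2 and 0.11 as the mean of its probe sets, and ran from −0.26 to 0.45 with a mouse left out. Pklr minus Pkm turned to −0.097 without control mice 1 and 2. With a mouse left out, Pfkm minus Pfkp ran from 0.68 (without RST mouse 3) to 1.32, Bpgm minus Pgam1 from 0.41 (without RST mouse 4 or control mouse 2) to 0.85, Hk1 minus Hk2 from 0.23 to 0.87, Pfkm minus Pfkl from 0.057 to 0.79 and Pklr minus Pkm from 0.10 to 0.45. The cause of these turns was not tested.
Over all probe sets, a trended and robust prior in limma gave 35 calls where the default prior called 0. The count before adjustment (p under 0.05, fold change above 1.5), at 3337, was 5539 with array weights, 2091 with the covariate, 856 without control mice 1 and 2, and 1731 (without control mouse 1; 1751 without control mouse 2) to 4933 (without RST mouse 2) with a mouse left out. The unmoderated test of the methods gave 2264, and 0 after Benjamini-Hochberg adjustment. Of the 3337 probe sets 78.3% were lower in RST mice. This share was 52.9% of the 3005 passing after quantile normalization and 94.1% of the 4915 passing with control probe scaling. Without RST mouse 4 it was 53.5% of the 2747 passing. The median log2 fold change of all probe sets (−0.20) was −0.010 with no filter, −0.017 after quantile normalization, −0.40 with control probe scaling and −0.098 without RST mouse 4. Mice of both groups share only replicate numbers (correlation of same-numbered deviations −0.24, 0.42, 0.046 and 0.20, with 0 of 4 best with their own number). The replicate block gave 4234 probe sets at the unadjusted threshold and 0 after adjustment.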
